A study of Mus musculus with 22 samples.

Results

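The 10 genes described here, Has1, Has2, Has3, Hyal1, Hyal2, Cd44, Vcan, Tnfaip6, Hapln1 and Lyve1, take part in making, binding and degrading hyaluronan. They were chosen by symbol and mapped to the Ensembl identifiers of the count files, which list 41388 genes. Hyaluronan is a long unsulfated glycosaminoglycan of the extracellular matrix that is extruded at the plasma membrane by hyaluronan synthases, from UDP-glucuronic acid and UDP-N-acetylglucosamine. It is bound by cell surface receptors such as CD44 and LYVE1 and by matrix proteins such as versican, TSG-6 (the product of Tnfaip6) and link proteins, and it is degraded by hyaluronidases. In tumors it is an abundant component of the stroma, and fibroblasts are a known source of it.

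Stromal cells were sorted from tumors of C57BL/6 mice of postnatal day 56 by TdTomato (TdT) and CD45, and RNA of 22 sorted samples was sequenced. All mice carried Osx-cre, a transgene in which the Osterix (Sp7) promoter drives a doxycycline-repressible Cre, and the Ai9 reporter, so that TdT marks cells in which Cre has been active and their progeny. The tumor is a GFP-labeled PyMT-BO1 line grown under the skin in the study's account of the experiment, whereas the labels of the samples name an orthotopic MMTV-BO1 tumor. GFP+ tumor cells were separated in the sort. After its first experiments the study worked with reporter mice kept on doxycycline up to weaning, which holds Cre off until then, and it does not give the diet again for the sequenced mice.

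The 4 populations were TdT single positive (TdT+;CD45-), double positive (TdT+;CD45+), CD45 single positive (TdT-;CD45+) and double negative (TdT-;CD45-). Each was taken from Osx-cre;Ai9 mice labelled as wild type (WT) and from mice labelled Cdh2-cKO;Ai9, a conditional knockout of Cdh2, the gene of N-cadherin. Each genotype has 2 libraries of TdT single positive cells and 3 of every other population, which makes 10 CD45- and 12 CD45+ libraries. The labels call them biological replicates but do not tie a library to a mouse, so populations may share mice. Gene counts summed to 16594228 in the smallest library and to 26784003 in the largest, with a median of 18977040. The floor used for detection was 3 counts, which is between 0.103 and 0.201 CPM (counts scaled to library size) after normalization with TMM factors. Such floors cover counting error alone, because the reads carry no molecular identifiers, whereas SE and 95% intervals of log2 fold changes come from edgeR's fit and include the spread between libraries.

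Cdh2 was read in every library first, because it is the targeted gene. In TdT single positive cells it stood at 9.13 and 5.19 normalized CPM in the WT libraries and at 17.2 and 13.1 in those labelled Cdh2-cKO. In double negative cells the WT libraries held 6.02, 7.47 and 4.52 normalized CPM and those labelled Cdh2-cKO 12.5, 18.4 and 14.2. The highest of the 12 CD45+ libraries had 2.74. Cdh2 was thus higher in all 5 CD45- libraries labelled as knockout than in all 5 CD45- WT libraries. Its log2 fold change was 1.08 (SE 0.84) in TdT single positive cells and 1.32 (SE 0.69) in double negative cells. There edgeR's quasi-likelihood test with Benjamini-Hochberg adjustment gave an adjusted p of 0.668 and of 0.623. Counts cover whole genes, and the deleted part of Cdh2 is not given in the sources used here, so these counts leave the allele unchecked and the libraries are called by their labels.

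Ptprc, the gene of CD45, ranged from 472 to 1821 normalized CPM in the 12 CD45+ libraries and from 2.45 to 337 in the 10 CD45- libraries, without overlap. A list of 6 leukocyte markers summed to between 11241 and 13650 normalized CPM in CD45+ libraries and to between 190 and 6610 in CD45- libraries, led by Laptm5 or Cd53. A list of 8 fibroblast markers summed to between 5075 and 66260 in CD45- libraries and to between 69.4 and 261 in CD45+ libraries, led by Col1a1 or Col1a2. The 8 macrophage markers, led by Lyz2 in every library, summed to between 5685 and 45206 in CD45+ libraries. Sp7 itself had 3 counts over all 22 libraries. Of the tumor epithelial list, Krt18 led in every CD45- library, and that list summed to between 27.3 and 1987 there, against between 132 and 470 in CD45+ libraries, led by Cdh1. Pericyte and smooth muscle markers summed to between 304 and 4028 normalized CPM in CD45- and to between 13.3 and 122 in CD45+ libraries, and endothelial markers to between 36.1 and 313 and to between 8.66 and 217. Neutrophil markers summed to at most 22.9 in CD45- and 86.2 in CD45+ libraries, skeletal muscle markers to at most 174 and 29.6, and osteolineage markers to at most 53.8 and 34.7.

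A few libraries stood apart on these lists. WT CD45 single positive replicate 2 had 2477 normalized CPM of the 3 B cell markers, led by Ms4a1, and 1080 of the 4 T cell markers, led by Cd3e, with the lowest macrophage sum of the CD45+ libraries (5685). WT double negative replicate 3 had the highest leukocyte sum of the CD45- libraries (6610), together with 15196 of macrophage markers. Cdh2-cKO TdT single positive replicate 1 came next, with sums of 4542 and 10648. Each count of called genes was therefore also made without these 3 libraries, a choice made after their values were seen.

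**Figure D1:**
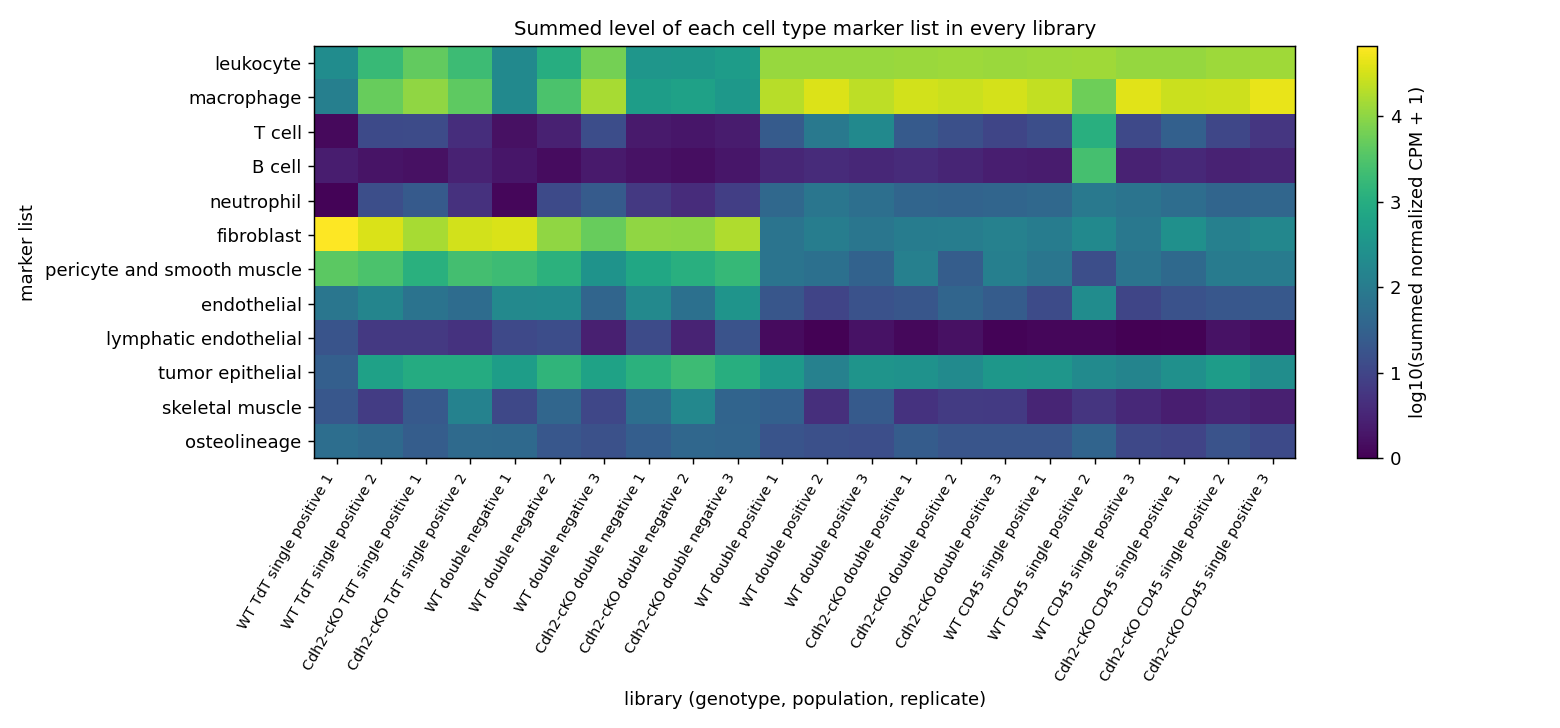
Rows are the 12 cell type marker lists, columns are the 22 libraries by population, genotype and replicate, and the color gives log10 of the summed normalized CPM plus 1. Fibroblast markers sum to at least 5075 in the CD45- libraries on the left and to at most 261 in the CD45+ libraries, and the B cell list stands out in WT CD45 single positive replicate 2.

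Of the 10 genes, 8 passed the filter of more than 1 CPM in at least 2 libraries. CD45+ and CD45- cells, the split between hematopoietic and other stromal cells, differed most. The synthase genes Has1 and Has2, the TSG-6 gene Tnfaip6 and the versican gene Vcan were lower in CD45+ cells, by between 4.34-fold and 28.1-fold. Hyal2 was also lower, by 1.46-fold, and Hyal1 was higher, by 1.82-fold, whereas Cd44 and Lyve1 were not called. So 6 of the 10 genes, or of the 8 tested, were called by edgeR at an adjusted p of at most 0.05, where 63.7% of the 15018 genes tested were. Higher in CD45+ cells was 1 of the 10, against 32.6% of the genes tested, and lower were 5, against 31.1%. The libraries of the CD45+ and CD45- populations did not overlap for 3 of the 10, Has1, Has2 and Tnfaip6, all lower in CD45+ cells, and for 14.7% of the genes tested. Over the 8 genes tested the median log2 fold change was -1.33, and over all genes tested it was 0.06. In sorted bulk samples, fewer cells of a type and less RNA per cell cannot be told apart.

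RefSeq promoters (GRCm38.p6, 250 bases before and 50 after the start of the gene) were found for 7 of the 10 genes, all but Has2, Has3 and Lyve1. They are shown for the 3 of the genes at least 4-fold lower in CD45+ cells that have an entry: Has1 (chr17:17855139-17855438, minus strand), Tnfaip6 (chr2:52037863-52038162, plus strand) and Vcan (chr13:89742463-89742762, minus strand). Capitals mark matches, on either strand, to 5 motifs. The TATA box was searched as TATAAA, the box named for its letters as CCAAT, the element called the GC box as GGGCGG and the AP-1 motif as TGANTCA, beside an NF-kappaB motif.
Has1: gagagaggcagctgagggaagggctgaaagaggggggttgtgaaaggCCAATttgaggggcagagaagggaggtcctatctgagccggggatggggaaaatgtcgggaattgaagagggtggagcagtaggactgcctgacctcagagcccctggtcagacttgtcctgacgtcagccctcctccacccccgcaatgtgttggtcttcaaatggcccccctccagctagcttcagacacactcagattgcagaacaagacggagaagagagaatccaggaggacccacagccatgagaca
Tnfaip6: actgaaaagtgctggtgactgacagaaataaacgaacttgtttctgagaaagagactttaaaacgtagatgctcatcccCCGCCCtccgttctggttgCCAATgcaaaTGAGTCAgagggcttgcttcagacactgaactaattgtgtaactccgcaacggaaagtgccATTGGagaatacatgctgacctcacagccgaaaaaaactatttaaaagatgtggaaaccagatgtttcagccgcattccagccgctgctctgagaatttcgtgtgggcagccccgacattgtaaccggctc
Vcan: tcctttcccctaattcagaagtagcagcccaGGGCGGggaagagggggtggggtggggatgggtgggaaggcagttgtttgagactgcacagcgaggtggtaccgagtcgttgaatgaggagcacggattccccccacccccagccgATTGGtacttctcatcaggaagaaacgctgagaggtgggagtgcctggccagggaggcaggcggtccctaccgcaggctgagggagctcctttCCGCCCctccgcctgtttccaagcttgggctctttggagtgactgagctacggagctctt
Each of the 3 windows holds CCAAT on at least 1 strand, at -203 in Has1, at -152 and -81 in Tnfaip6 and at -103 in Vcan. CCAAT occurred in 37.4% of the 32851 promoters of the table, and in 4 of the 7. GGGCGG was found in Tnfaip6 and Vcan, in 5 of the 7 and in 35.7% of all promoters. TGANTCA was found in Tnfaip6 alone of the 7, at -142, and in 7.81% of all promoters. None of the 7 held TATAAA, found in 13.6% of all promoters, or the NF-kappaB motif, found in 1.63%.

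Has1 (ENSMUSG00000003665, chr17:17843328-17855188, minus strand) encodes a hyaluronan synthase, a membrane enzyme that polymerizes the chain. In TdT single positive cells Has1 was at 99.4 and 65.5 normalized CPM in the WT libraries and at 58.5 and 71.9 in those labelled Cdh2-cKO, and in double negative cells at 103, 74.5 and 31.2 (WT) and at 60.5, 84.4 and 119 (Cdh2-cKO). In double positive cells it was at 6.24, 0.994 and 1.79 (WT) and at 1.77, 2.04 and 6.97 (Cdh2-cKO), and in CD45 single positive cells at 1.56, 2.86 and 0.97 (WT) and at 1.87, 9.03 and 5.19 (Cdh2-cKO). All 10 CD45- libraries thus lay above all 12 CD45+ libraries, and the lowest of the former was WT double negative replicate 3, the library with the highest leukocyte sum among them. Has1 was lower in CD45+ cells by 23.7-fold (log2 fold change -4.57, SE 0.39), with an adjusted p of 2.607e-08 from edgeR with Benjamini-Hochberg adjustment. Ordered by their means, the 4 CD45- groups ran from 88.0 ± 29.4 (SD, n = 3) in Cdh2-cKO double negative cells to 65.2 ± 9.42 (SD, n = 2) in Cdh2-cKO TdT single positive cells, and the libraries of neighbors in that order overlapped. The CD45+ groups ran from 5.36 ± 3.58 (SD, n = 3) in Cdh2-cKO CD45 single positive cells to 1.80 ± 0.969 (SD, n = 3) in WT CD45 single positive cells, again with overlap between neighbors.

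Has2 (ENSMUSG00000022367, chr15:56665627-56694539, minus strand), the synthase required for heart development in the mouse embryo, was less abundant. TdT single positive libraries held 28.3 and 19.0 (WT) and 9.12 and 19.9 (Cdh2-cKO) normalized CPM of Has2, and double negative libraries 33.8, 13.9 and 14.4 (WT) and 21.3, 29.8 and 23.5 (Cdh2-cKO). Double positive libraries held 0.357, 0.0585 and 0.528 (WT) and 0.773, 0.097 and 0.902 (Cdh2-cKO), and CD45 single positive libraries 0.301, 2.29 and 0.431 (WT) and 0.989, 1.67 and 1.73 (Cdh2-cKO). The highest CD45+ library was WT CD45 single positive replicate 2, the one rich in lymphocyte markers, and the lowest rested on 1 count. Has2 was lower in CD45+ cells by 28.1-fold (log2 fold change -4.81, SE 0.40; edgeR, Benjamini-Hochberg adjusted p 1.708e-08), and the log2 fold change was -5.40 without the 3 libraries that stood apart. The antisense gene Has2os shares 182 bases of its exons with Has2, and the libraries do not mark strand. Reads there were ambiguous and could not be assigned to either gene, so both counts rest on the remainder of the exons. Over all libraries these counts were 780 for Has2os and 4769 for Has2.

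Has3 (ENSMUSG00000031910, chr8:106870242-106884566, plus strand), the remaining synthase, failed the filter. Its counts summed to 35 over the 22 libraries, with between 0 and 5 in a library, so any difference was not detectable at this depth. Levels of the synthases can be compared with each other per length of transcript, as RPKM, the normalized CPM divided by gene length in kilobases. On that scale Has1 made up between 81.4% and 92.8% of the summed RPKM of the 3 synthases in the CD45- libraries. In the CD45+ libraries the share was between 70.4% and 97.3%, on sums of between 19 and 161 synthase counts. Fibroblast markers were high and leukocyte markers low in the same libraries in which Has1 and Has2 were high, and the part of this composition in the synthase difference was not tested.

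**Figure D2:**
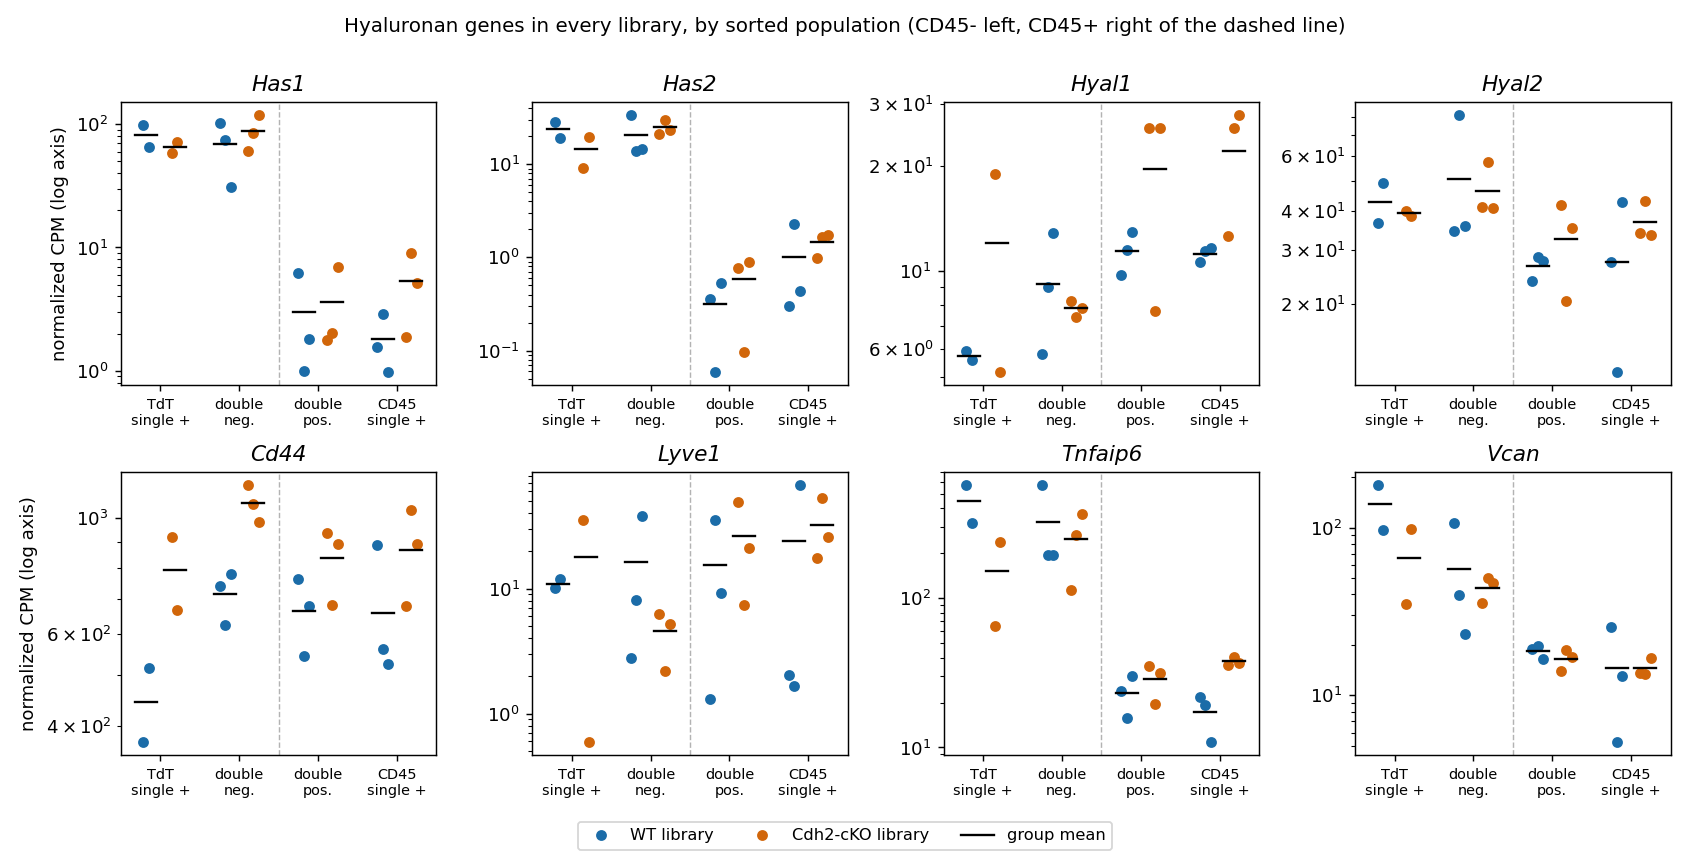
Each panel shows 1 of the 8 genes that passed the filter, with a point for each of the 22 libraries on a log axis of normalized CPM, blue for WT and orange for Cdh2-cKO, and a bar at each group mean. Has1, Has2 and Tnfaip6 are higher in every CD45- library (left of the dashed line) than in any CD45+ library, and Lyve1 spreads from 0.592 to 68.0 with high and low libraries on either side.

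Hyal1 (ENSMUSG00000010051, chr9:107576927-107581710, plus strand) encodes a lysosomal hyaluronidase. In TdT single positive cells it was at 5.92 and 5.58 normalized CPM (WT) and at 19.0 and 5.15 (Cdh2-cKO), and in double negative cells at 5.79, 9.01 and 12.8 (WT) and at 8.20, 7.42 and 7.88 (Cdh2-cKO). In double positive cells it was at 9.75, 11.5 and 12.98 (WT) and at 25.6, 7.71 and 25.6 (Cdh2-cKO), and in CD45 single positive cells at 10.6, 11.4 and 11.6 (WT) and at 12.6, 25.6 and 27.9 (Cdh2-cKO). The groups overlapped: the highest CD45- libraries were Cdh2-cKO TdT single positive replicate 1 and WT double negative replicate 3, which also had the highest leukocyte and macrophage sums of the CD45- libraries. Hyal1 was higher in CD45+ cells by 1.82-fold (log2 fold change 0.87, SE 0.24), with an adjusted p of 0.00502 (edgeR, Benjamini-Hochberg). With the WT libraries alone the log2 fold change was 0.63 and edgeR's adjusted p 0.0549. In the fit of all libraries Hyal1 was not called within WT (0.64, SE 0.34; edgeR adjusted p 0.133) but was within Cdh2-cKO (1.10, SE 0.35; 0.0140). The difference of its CD45 effect between the genotypes was not called (0.46, SE 0.48; 0.840). Exons of Hyal1 share 1920 of their 3777 bases with Naa80 and 159 with Hyal3, so reads there could not be assigned and its counts rest on the remainder, while its RPKM divides by the full length.

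Hyal2 (ENSMUSG00000010047, chr9:107569117-107572776, plus strand) encodes a hyaluronidase anchored to the cell surface. Its TdT single positive libraries held 36.5 and 49.1 (WT) and 39.996 and 38.6 (Cdh2-cKO) normalized CPM, and its double negative libraries 34.4, 81.4 and 35.7 (WT) and 41.1, 57.3 and 40.8 (Cdh2-cKO). Double positive libraries held 23.8, 28.3 and 27.6 (WT) and 41.8, 20.5 and 35.2 (Cdh2-cKO), and CD45 single positive libraries 27.3, 12.1 and 42.8 (WT) and 33.9, 42.9 and 33.4 (Cdh2-cKO). The highest was WT double negative replicate 2 and the lowest WT CD45 single positive replicate 2, and the CD45+ and CD45- ranges overlapped. Hyal2 was lower in CD45+ cells by 1.46-fold (log2 fold change -0.55, SE 0.20), with an adjusted p of 0.0265 (edgeR, Benjamini-Hochberg). This call was lost without WT TdT single positive replicate 2 (log2 fold change -0.49, edgeR adjusted p 0.0645), without WT double negative replicate 2 (-0.41, 0.0598), and with the WT (-0.79, 0.0936) or Cdh2-cKO (-0.36, 0.109) libraries alone. In the fit of all libraries Hyal2 was called within WT (-0.79, SE 0.29; edgeR adjusted p 0.0304) and not within Cdh2-cKO (-0.31, SE 0.29; 0.399), and the difference of its CD45 effect between the genotypes was not called (0.48, SE 0.41; 0.802).

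Cd44 (ENSMUSG00000005087, chr2:102811141-102901665, minus strand) encodes the main surface receptor for hyaluronan, which is found on leukocytes and on many mesenchymal cells. In TdT single positive cells it was at 373 and 518 normalized CPM (WT) and at 920 and 667 (Cdh2-cKO), and in double negative cells at 741, 623 and 780 (WT) and at 1156, 1061 and 980 (Cdh2-cKO). In double positive cells it was at 765, 545 and 679 (WT) and at 934, 682 and 892 (Cdh2-cKO), and in CD45 single positive cells at 885, 562 and 525 (WT) and at 679, 1035 and 890 (Cdh2-cKO). It was abundant in every library, and the CD45+ range lay inside the CD45- range. The log2 fold change of Cd44 between CD45+ and CD45- cells was 0.06 (SE 0.13), with a 95% interval from -0.21 to 0.33 and an adjusted p of 0.715 (edgeR, Benjamini-Hochberg). Its sign changed with RLE factors and with DESeq2, each at -0.01, and with the Cdh2-cKO libraries alone, at -0.17. In the fit of all libraries it was 0.23 (SE 0.18) within WT and -0.11 (SE 0.18) within Cdh2-cKO, and the difference between these was not called (-0.34, SE 0.26; edgeR adjusted p 0.788). Of the 8 groups, Cdh2-cKO double negative cells had the highest mean, 1066 ± 88.0 (SD, n = 3), and WT TdT single positive cells the lowest, 445.4 ± 102 (SD, n = 2), below every library of the group next to it in that order.

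Lyve1 (ENSMUSG00000030787, chr7:110850607-110862953, minus strand) encodes a hyaluronan receptor of lymphatic endothelium that some tissue macrophages also carry. TdT single positive libraries held 10.1 and 11.9 (WT) and 35.3 and 0.592 (Cdh2-cKO) normalized CPM, and double negative libraries 2.80, 8.19 and 37.9 (WT) and 6.31, 2.18 and 5.25 (Cdh2-cKO). Double positive libraries held 1.31, 35.7 and 9.18 (WT) and 49.9, 7.47 and 21.2 (Cdh2-cKO), and CD45 single positive libraries 2.05, 1.66 and 68.0 (WT) and 17.5, 53.4 and 25.8 (Cdh2-cKO). Libraries of the same group differed by over 10-fold in 4 of the 8 groups, and CD45+ and CD45- ranges overlapped over most of their width. Between CD45+ and CD45- cells its log2 fold change was 1.10 (SE 0.75), with a 95% interval from -0.47 to 2.67 and an adjusted p of 0.210 (edgeR, Benjamini-Hochberg).

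Which libraries entered the fit decided the value for Lyve1. Without Cdh2-cKO TdT single positive replicate 1 its log2 fold change was 2.33 and edgeR's adjusted p 0.0288, without the 3 libraries that stood apart 2.79 and 0.00542, and without WT CD45 single positive replicate 3 it was 0.18 and 0.826. The 2 CD45- libraries with the most Lyve1, WT double negative replicate 3 (37.9) and Cdh2-cKO TdT single positive replicate 1 (35.3), had the highest macrophage sums of the CD45- libraries, and WT CD45 single positive replicate 2 (1.66) had the lowest of the CD45+ libraries. The CD45+ library with the least Lyve1, WT double positive replicate 1 (1.31), had a macrophage sum of 20463, so the order of the sums was not that of Lyve1, and their part in its values was not tested. Of the 6 lymphatic endothelial markers, Ccl21a and Pdpn had 0 counts in all libraries and Prox1 reached at most 0.526 normalized CPM. Only uniquely aligned, unambiguous reads were counted, so 0 counts need not mean that a gene was silent, and the reason for them was not tested. The list, led by Flt4 in most libraries, summed to at most 16.9 in CD45- libraries and to at most 0.739 in CD45+ libraries.

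Tnfaip6 (ENSMUSG00000053475, chr2:52038009-52056686, plus strand) encodes TSG-6, a secreted protein induced in inflammation that transfers heavy chains of inter-alpha-inhibitor onto hyaluronan. In TdT single positive cells it was at 569 and 317 normalized CPM (WT) and at 64.6 and 239 (Cdh2-cKO), and in double negative cells at 574, 195 and 193 (WT) and at 113, 266 and 364 (Cdh2-cKO). In double positive cells it was at 24.1, 15.7 and 29.9 (WT) and at 34.9, 19.5 and 31.4 (Cdh2-cKO), and in CD45 single positive cells at 21.8, 19.4 and 10.9 (WT) and at 35.8, 40.5 and 36.8 (Cdh2-cKO). Every CD45- library lay above every CD45+ library, and the lowest of the former was Cdh2-cKO TdT single positive replicate 1. Tnfaip6 was lower in CD45+ cells by 10.5-fold (log2 fold change -3.40, SE 0.29; edgeR, Benjamini-Hochberg adjusted p 2.472e-08). The log2 fold change was -4.23 with the WT libraries alone and -2.62 with the Cdh2-cKO libraries alone, and the test of that difference is given with the genotypes.

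Vcan (ENSMUSG00000021614, chr13:89655312-89742509, minus strand) encodes versican, a large chondroitin sulfate proteoglycan whose N-terminal domain binds hyaluronan. Its TdT single positive libraries held 180.3 and 97.1 (WT) and 34.9 and 97.6 (Cdh2-cKO) normalized CPM, and its double negative libraries 107, 39.6 and 23.2 (WT) and 35.5, 49.7 and 46.5 (Cdh2-cKO). Double positive libraries held 18.8, 19.7 and 16.5 (WT) and 14.02, 18.5 and 17.0 (Cdh2-cKO), and CD45 single positive libraries 25.6, 5.27 and 13.04 (WT) and 13.7, 13.4 and 16.6 (Cdh2-cKO). The ranges touched at WT double negative replicate 3, which lay below WT CD45 single positive replicate 1. Vcan was lower in CD45+ cells by 4.34-fold (log2 fold change -2.12, SE 0.28; edgeR, Benjamini-Hochberg adjusted p 5.061e-06).

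Hapln1 (ENSMUSG00000021613, chr13:89540636-89611832, plus strand) encodes a link protein that holds hyaluronan and proteoglycans together. It failed the filter, with 39 counts over the 22 libraries. Of these, 32 were in WT TdT single positive replicate 2 (1.24 normalized CPM), and no other library exceeded 2 counts, which is below the floor. Its neighbor on the chromosome, Vcan, was at 97.1 normalized CPM in that library.

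Compared per length, Tnfaip6 had the highest median of the 10 genes over the CD45- libraries, with 147 RPKM, followed by Cd44 with 112, Has1 with 35.02 and Hyal2 with 21.3. The order of the first pair differed between the labels: mean RPKM of Tnfaip6 and Cd44 were 259 and 65.7 in WT TdT single positive and 187 and 105 in WT double negative cells, but 88.7 and 117, and 145 and 157, in the same populations labelled Cdh2-cKO. The values of the 2 genes overlapped in all of these groups but WT TdT single positive cells. Has2 (4.86), Vcan (3.33) and Lyve1 (2.78) came after them in median RPKM. The place of Hyal1 depended on the length used, since its median was 2.02 RPKM over the full exon length and 4.21 over the 1816 bases that no other gene shares, below or above Vcan and Lyve1. Over the CD45+ libraries Cd44 had the highest median RPKM, 107, followed by Hyal2 with 16.3, Tnfaip6 with 15.8, Lyve1 with 7.41, Hyal1 with 3.21 (6.67 over its unshared bases), Vcan with 1.14, Has1 with 0.934 and Has2 with 0.153. The median was thus above 100 RPKM for Tnfaip6 and Cd44 over the CD45- libraries, and for Cd44 alone over the CD45+ libraries.

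TdT+ and TdT- cells were compared within CD45- cells to ask whether cells of the Osx-cre lineage differ from the rest of the stroma. Of the 10 genes 0 were called by edgeR, where 1.89% of the genes tested were. An unadjusted p under 0.05 was found for 2 of the 10, Cd44 and Vcan, and for 2847 of the 15018 genes tested. Vcan was at a log2 fold change of 0.94 (SE 0.40) toward TdT single positive cells, with an adjusted p of 0.216 in edgeR, and the values of the 4 TdT single positive libraries overlapped those of the 6 double negative ones. Without WT double negative replicate 1 it was called, with a log2 fold change of 1.37 and an edgeR adjusted p of 0.0487, and without Cdh2-cKO TdT single positive replicate 2 it was at 0.48 (0.656). Cd44 had a log2 fold change of -0.55 (SE 0.20) with an adjusted p of 0.136 in edgeR, and DESeq2 called it (-0.57, adjusted p 0.0452, Benjamini-Hochberg). By voom 0 of the 10 were called, and by DESeq2 1. No gene of the 10 had an unadjusted p under 0.05 in edgeR without WT TdT single positive replicate 1, without Cdh2-cKO TdT single positive replicate 2, or with the libraries of either genotype alone. Over all genes tested the median log2 fold change was 0.07, and over the 8 genes it was -0.11.

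Same-numbered TdT single positive and double negative libraries of a genotype deviated from their group means together in all 4 pairs. The 4 are not independent, because the deviations of the 2 TdT single positive libraries of a genotype mirror each other, and WT TdT single positive replicate 2 correlated more with WT double negative replicate 3 (r = 0.428) than with its own number (0.215). The numbers were therefore used as a block in an alternative alone. Within the 4 pairs, Cd44 and Has1 were lower in the TdT single positive library each time, as were 14.9% of the genes tested. Vcan and Lyve1 were higher in 3 pairs, Has2, Hyal2 and Tnfaip6 were lower in 3, and Hyal1 was higher in 2 and lower in 2. For Has1 the log2 fold change was only -0.09 (SE 0.52; edgeR adjusted p 0.942), and it was 0.24 with the WT libraries alone. Both Cd44 values of the TdT single positive libraries also lay below the 3 double negative values of the same genotype. How many of all genes tested did so was not counted, and no conclusion is drawn from this order. With the number as a block within each genotype, fitted to the 10 CD45- libraries and added after the data were seen, edgeR called 9.75% of the genes tested and again 0 of the 10. Cd44 was then at a log2 fold change of -0.64 (SE 0.19; edgeR adjusted p 0.06795), Vcan at 0.67 (SE 0.21; 0.08349) and Has1 at -0.21 (SE 0.16; 0.419). That fit gave 1396 calls over all genes, against 284 in the fit of all 22 libraries and 2 in the same 10 libraries without the block.

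Marker lists also differed within these pairs. The fibroblast list summed to 66260 and 35092 in the WT TdT single positive libraries against 35947, 10552 and 5075 in the WT double negative ones, and to 15452 and 30888 against 10533, 9968 and 17458 in those labelled Cdh2-cKO, higher in the TdT single positive library of all 4 pairs although the ranges overlapped. The tumor epithelial list summed to 27.3 and 562 against 491, 1402 and 592 (WT) and to 932 and 923 against 1225, 1987 and 1072 (Cdh2-cKO), lower in the TdT single positive library of all 4 pairs. Leukocyte and pericyte and smooth muscle sums were also higher in the TdT single positive library of each pair, and endothelial sums lower. The part of these lists in the values of Cd44, Vcan and Has1 was not tested.

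Within CD45+ cells, TdT+ and TdT- libraries gave 0 calls among the 10 genes with edgeR, voom and DESeq2. Over all genes tested edgeR called 0.00666%, a single gene, Duoxa2 (log2 fold change 3.27, adjusted p 0.0009161 after Benjamini-Hochberg adjustment), named after its value was seen. DESeq2 called 6 genes there, and edgeR 0 with the WT libraries alone. Has2 was the 1 gene of the 10 with an unadjusted p under 0.05 in edgeR, which 609 of the 15018 genes tested had. Its log2 fold change was -1.48 (SE 0.55; edgeR adjusted p 0.9999), at levels of between 1 and 40 counts in a library. Without WT CD45 single positive replicate 2, the library rich in lymphocyte markers, it was -0.76, and 0 of the 10 genes then had an unadjusted p under 0.05, as with voom and with the WT libraries alone.

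The genotypes were compared within each population. In TdT single positive cells, the population in which Cre had been active outside the CD45+ gate, 0 of the 10 genes were called by edgeR, voom or DESeq2, and edgeR called 0.00666% of the genes tested, a single gene, Nipal3 (log2 fold change 4.98, adjusted p 0.0194 after Benjamini-Hochberg adjustment), named after its value was seen. That count over all genes was 0 with voom, with only the compared groups in the fit, without TdT single positive replicate 1 of either genotype, and without the 3 libraries that stood apart, whereas DESeq2 called 134, and edgeR 89 without WT TdT single positive replicate 2, 4 without Cdh2-cKO TdT single positive replicate 2 and 10 without WT double negative replicate 3. Among the 10, Cd44 (log2 fold change 0.83, SE 0.30) and Tnfaip6 (-1.55, SE 0.64) had an unadjusted p under 0.05, with adjusted p of 0.383 and 0.435 in edgeR. Over all genes tested, 1576 of 15018 had an unadjusted p under 0.05 in this comparison. Tnfaip6 was at -0.89 without Cdh2-cKO TdT single positive replicate 1 and at -2.78 without replicate 2 of that group. None of the 10 had an unadjusted p under 0.05 without TdT single positive replicate 1 of either genotype, with only the compared groups in the fit, or without the 3 libraries that stood apart. Both Cd44 values of the libraries labelled Cdh2-cKO lay above both WT values, and both Tnfaip6 values below them, with 2 libraries a group. The share of all genes tested that separated the labels in this way was not counted, so no conclusion is drawn from it. Several marker lists separated the labels as well. The leukocyte list summed to 219 and 1810 in the WT libraries of this population and to 4542 and 2031 in those labelled Cdh2-cKO, the tumor epithelial list to 27.3 and 562 against 932 and 923, and the skeletal muscle list to 19.5 and 6.08 against 21.5 and 136. The fibroblast list summed to 66260 and 35092 against 15452 and 30888, the pericyte and smooth muscle list to 4028 and 2848 against 1130 and 2372, and the endothelial list to 75.8 and 156 against 67.9 and 50.03. Macrophage sums overlapped (119 and 4990 against 10648 and 4226), as did those of the 5 lists not named here, and the part of these lists in the values of Cd44 and Tnfaip6 was not tested.

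In double positive cells 0 of the 10 genes were called between the genotypes, as were 0% of the genes tested. In edgeR 0 of the 10 had an unadjusted p under 0.05, where 515 of the 15018 genes tested did. In CD45 single positive cells 0 of the 10 were called, again with 0% of the genes tested, while Has1 (log2 fold change 1.57, SE 0.71), Tnfaip6 (1.12, SE 0.52) and Hyal1 (0.97, SE 0.46) had an unadjusted p under 0.05 and adjusted p of between 0.4986 and 0.5015 in edgeR. Over all genes tested 1474 of 15018 had an unadjusted p under 0.05 there. With voom 1 of the 10 did, with the replicate block 1, and without WT CD45 single positive replicate 2, the library rich in lymphocyte markers, 2. All 3 Tnfaip6 values of the libraries labelled Cdh2-cKO lay above the 3 WT values there, as did those of Hyal1, while those of Has1 overlapped. Such separation was not counted over all genes tested, so no conclusion is drawn from it. Without Cdh2-cKO CD45 single positive replicate 2 the log2 fold change of Has1 was 0.97, and without that library or replicate 3 of the group 0 of the 10 had an unadjusted p under 0.05. The B cell list summed to 1.32, 2477 and 1.94 in the WT libraries of this population and to 2.64, 1.87 and 2.11 in those labelled Cdh2-cKO. The macrophage list summed to 24083, 5685 and 40342 against 27782, 28681 and 45206. Both lists overlapped, and their part in the values of Has1, Tnfaip6 and Hyal1 was not tested. In double negative cells the counts were 0 of 10 and 0% of the genes tested. Of the 10, 1 had an unadjusted p under 0.05, Cd44 (log2 fold change 0.58, SE 0.24; adjusted p 0.408 in edgeR), as did 1441 of the 15018 genes tested. None of the 10 did without WT replicate 2 or Cdh2-cKO replicate 1 or 2 of these cells. For Cd44 the 3 libraries labelled Cdh2-cKO lay above the 3 WT libraries. How many of all genes separated so was not counted, and no conclusion is drawn from it. In these libraries the tumor epithelial list summed to 491, 1402 and 592 (WT) and to 1225, 1987 and 1072 (Cdh2-cKO), and the macrophage list to 189, 2799 and 15196 and to 488, 572 and 369, both with overlap, and their part in the Cd44 values was not tested. Neither voom nor DESeq2 called any of the 10 in these 3 populations. Over all genes tested, the count in double negative cells rested on single libraries, since edgeR called 604 genes without WT double negative replicate 1 and 31 without WT double negative replicate 2, and DESeq2 called 522. Because Cdh2 was not lower in the CD45- libraries labelled Cdh2-cKO, these directions are between labels.

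The difference of the CD45 effect between the genotypes was tested as an interaction. It called 0 of the 10 genes in edgeR, voom and DESeq2, and 0% of the genes tested in edgeR. Tnfaip6 came closest, with an interaction of 1.67 on the log2 scale (SE 0.55), a smaller CD45 difference in the libraries labelled Cdh2-cKO. It had an unadjusted p of 0.007267 and an adjusted p of 0.563 (edgeR, Benjamini-Hochberg), and it was the 1 gene of the 10 with an unadjusted p under 0.05. Over all genes tested, 1157 of 15018 had one.

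**Figure D3:**
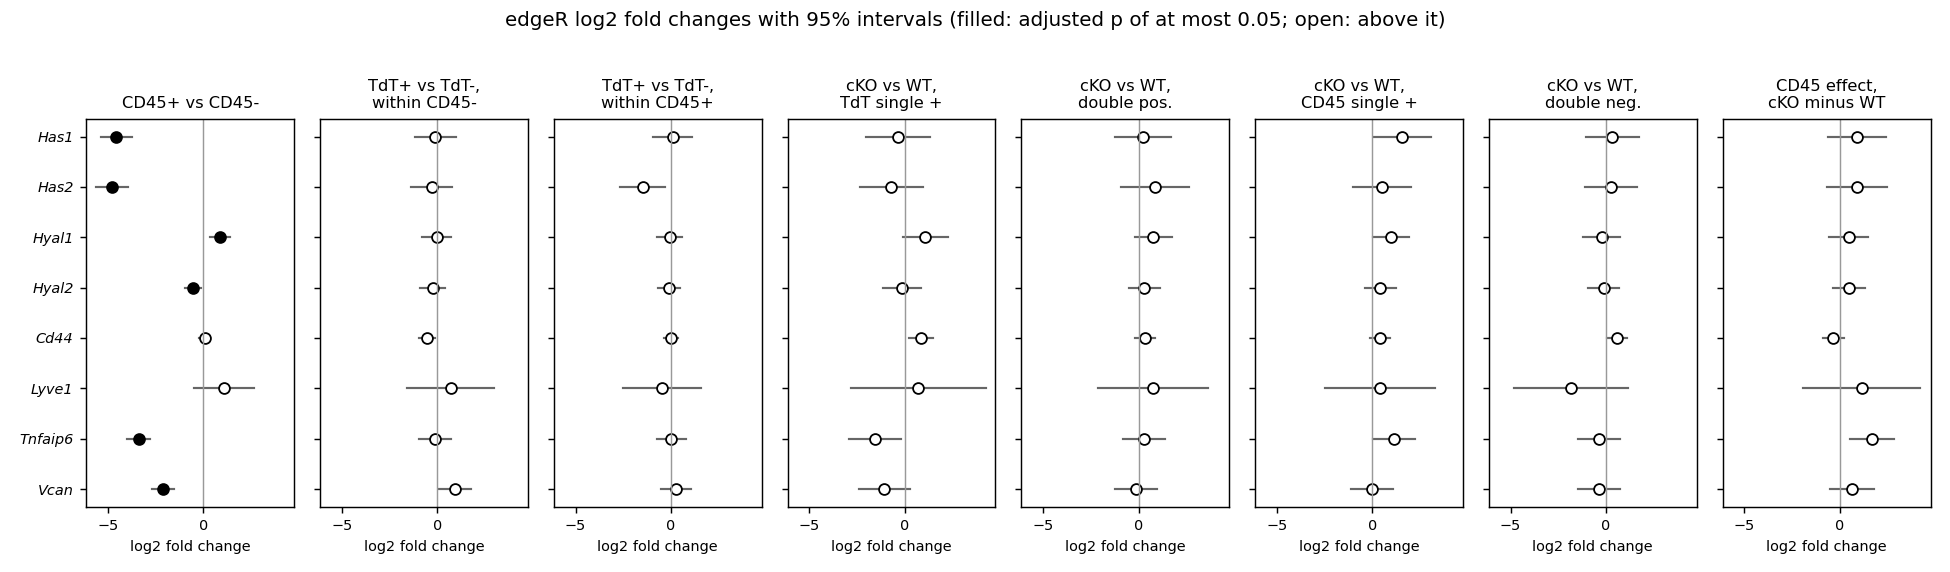
Each panel is 1 comparison, the horizontal axis is edgeR's log2 fold change, and points with lines are the estimates of the 8 genes with 95% intervals, filled where the adjusted p was at most 0.05; cKO stands for libraries labelled Cdh2-cKO. In the CD45 comparison, 6 points are filled, and in the other 7 comparisons none is.

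The other genes of the pathway were taken from a list of 40, of which 25 passed the filter. In the CD45 comparison 22 of the 40, or of the 25 tested, were called, where 63.7% of all genes tested were. Of the 25 tested, 8 were called higher in CD45+ cells, where 32.6% of all genes tested were, and 14 lower, where 31.1% were. The median log2 fold change of the 25 was -0.60. Of the enzymes that supply the UDP-sugar precursors, 7 of 7 were called, 6 of them lower in CD45+ cells. Gfpt2, an enzyme at the entry to hexosamine synthesis, ranged from 85.5 to 353 normalized CPM in CD45- libraries, with a median of 209, and from 1.26 to 10.97 in CD45+ libraries, with a median of 4.15 (log2 fold change -5.42, SE 0.35; edgeR, Benjamini-Hochberg adjusted p 8.716e-10). Ugdh, which makes UDP-glucuronic acid and was not among the 5 with the largest decrease, ranged from 189.98 to 469 in CD45- and from 31.4 to 66.4 in CD45+ libraries.

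The remaining genes with the largest decrease lay in the binding and degrading groups. Hapln4, a link protein gene at low level, reached 3.11 normalized CPM in CD45- libraries and had 3 counts in all CD45+ libraries together. Itih5, of the inter-alpha-inhibitor heavy chain family, had a median of 94.9 normalized CPM in CD45- and of 0.871 in CD45+ libraries (log2 fold change -6.02, SE 0.60). Ptx3, a pentraxin that binds TSG-6, had medians of 19.8 and 0.66 (-5.71, SE 0.58), and Cemip, which takes part in hyaluronan depolymerization, medians of 2.84 and 0.0938 (-4.79, SE 0.56). These were called by edgeR with Benjamini-Hochberg adjusted p of between 1.912e-07 (Itih5) and 8.218e-05 (Hapln4). With so few CD45+ counts, Hapln4 passed the filter through CD45- libraries alone, so no conclusion is drawn from its call. The CD45+ median of Cemip lay below the lowest floor of 0.103 CPM, so the size of its decrease is uncertain.

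Among the genes higher in CD45+ cells, Ambp, the bikunin precursor gene, had a median of 8.04 normalized CPM in CD45+ and of 0.401 in CD45- libraries (log2 fold change 3.08, SE 0.68). Stab1, a scavenger receptor of macrophages and sinusoidal endothelium, had medians of 427 and 41.3 (2.47, SE 0.45). Gusb, the lysosomal beta-glucuronidase gene, had a log2 fold change of 1.73 (SE 0.27), and Hyal3, a relative of Hyal1 that shares exon sequence with it, of 1.62 (SE 0.40). Hyal3 was at low level, with 382 counts over all libraries and between 2 and 48 in a library. Of these 4, edgeR's Benjamini-Hochberg adjusted p was highest for Hyal3, at 0.001708. The CD44 linker genes Ezr, Rdx and Msn were not called, but their smallest adjusted p in edgeR was 0.0612, close to the threshold. All 3 had an unadjusted p under 0.05, as did 10060 of the 15018 genes tested, and their median log2 fold change was 0.31. Outside the CD45 comparison, 0 of the 40 were called in either TdT comparison, between the genotypes or for the interaction. The macrophage list was also higher in most CD45+ libraries, and its part in these differences was not tested.

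**Figure D4:**
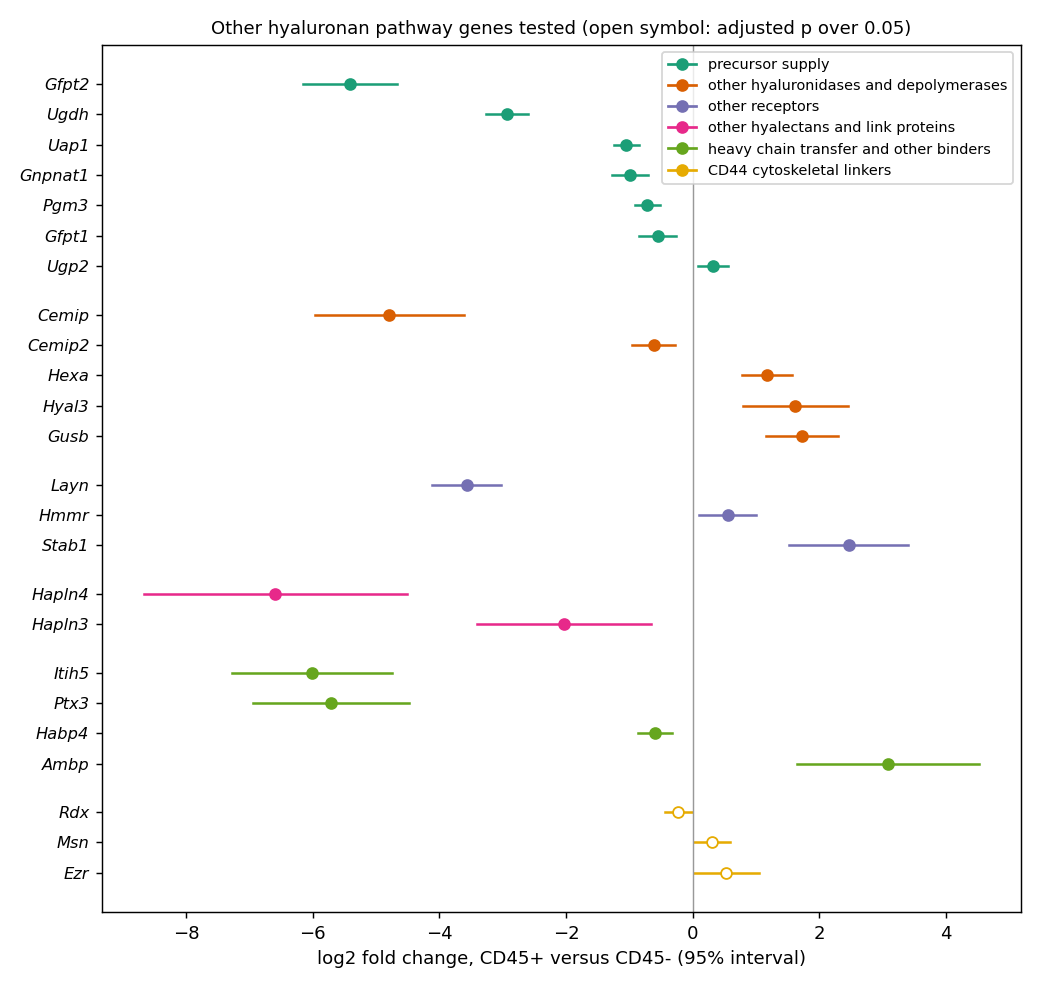
The horizontal axis is edgeR's log2 fold change between CD45+ and CD45- cells with its 95% interval for the other pathway genes tested and reported here, colored by role and ordered within each role. Precursor supply genes lie left of 0 in 6 of 7 cases, and the 3 CD44 linker genes have open symbols, with adjusted p over 0.05.

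The genes whose levels over the 22 libraries were most like those of each gene were found by Pearson correlation of log2 CPM, as a description of libraries that fall into CD45+ and CD45- clusters. Has1 was most like Ddr2 (r = 0.982), Ugdh (0.981) and Flnc (0.981), and Has2 most like Il33 (0.981), Steap1 (0.978) and Pdzrn3 (0.977). Vcan was most like Mmp14 (0.972), Marveld1 (0.972) and Arsi (0.957), and Tnfaip6 most like Nlgn2 (0.954), Sned1 (0.953) and Dok5 (0.953). Ugdh, the UDP-glucose dehydrogenase gene, is the 1 neighbor that is also in the pathway list. Hyal1 was most like Fnip2 (0.914), Sbk2 (0.909) and 2310022A10Rik (0.876), Hyal2 most like Avpi1 (0.874), Hdhd2 (0.849) and Snapin (0.843), and Cd44 most like Pgk1 (0.871), Slc2a1 (0.812) and Tanc2 (0.812). For Lyve1 the nearest were Liph (0.860), Fkbp5 (0.854) and Mfsd4b3 (0.832).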

How the data were processed

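Reads of 50 bases from amplified cDNA (SMARTer kit, unstranded) had been aligned by the authors with STAR 2.0.4b to GRCm38 and counted on Ensembl genes with featureCounts (1.45 in the submitters' processing notes), using uniquely aligned, unambiguous reads. The authors deposited whole-number counts, not normalized. The CPM values deposited by the authors are counts scaled to each library's total, and the deposited RPKM values divide these by gene length; recomputed from the counts, both came out equal within a relative difference of 5.1e-14. Gene symbols came from tables for GENCODE M21, which matched 40254 of 41388 identifiers; positions are those of the count files.

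Counts were analysed in R 4.3.3. Of these genes, 355 for rRNA were set aside, and the 15018 with over 1 CPM in 2 libraries or more were tested. A quasi-likelihood model of edgeR 4.0.16, with TMM factors and 8 group means, was fitted to all 22 libraries together, and p-values were adjusted over all genes tested (Benjamini-Hochberg, called at 0.05 or less). SE were derived from the quasi-likelihood F statistic. Normalized CPM are counts over TMM-scaled library sizes, and normalized RPKM divide them by length. Alternatives were limma 3.58.1 (voomWithQualityWeights, the tool of the study, which tested other contrasts), DESeq2 1.42.0, RLE factors, no filter, a fold threshold, the replicate number as a block, subsets of libraries and leaving out each library. Deviations from group means correlated in all 4 same-numbered pairs of TdT single positive and double negative libraries (0.593 and 0.215 in WT, 0.113 and 0.166 in Cdh2-cKO; with 2 TdT single positive libraries a genotype, their deviations mirror each other). No label says that a number marks a mouse, and WT TdT single positive replicate 2 correlated more with WT double negative replicate 3 (0.428). A block within each genotype was added after the data were seen. Pairs of replicates had a chi-square per df from 49.1 to 437.4, far above that of 1 library counted again.

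Named were all 10 genes, Cdh2, Ptprc, up to 5 called pathway genes in each direction of the CD45 comparison, and 3 nearest genes by correlation (prior count 2). Of the called pathway genes that this rule selects, 1 is not reported here, though the counts include it. Marker lists were leukocyte, macrophage, T cell, B cell, neutrophil, fibroblast, pericyte and smooth muscle, endothelial, lymphatic endothelial, tumor epithelial, skeletal muscle and osteolineage. The 10 genes and the lists were chosen with earlier results of these data known.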

Additional observations from a re-analysis of the deposited data

How the results depend on the processing

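Of the 10 genes, 6 were called in the CD45 comparison with voom, DESeq2, RLE factors, no filter and the replicate block, 4 with an absolute log2 fold change of at least 2 as well, 4 with WT libraries alone and 5 with Cdh2-cKO libraries alone, and between 5 and 7 when leaving out each library in turn. Without the 3 libraries that stood apart, an alternative chosen after seeing the data, 7 were called. Of the 40 other pathway genes 22 were called, and 11 with the fold threshold, which by construction passes fewer genes; the other alternatives gave between 15 and 23. For TdT within CD45- cells, DESeq2 called 1 of the 10 genes (Cd44) in place of 0, and leaving out each library gave between 0 and 1; the cause was not tested. Over all genes that comparison gave 284 calls, 718 with voom, 982 with DESeq2, 39 with the fold threshold, 92 with no filter, 0 and 1149 with WT and Cdh2-cKO libraries alone, 2 with only the groups compared, 769 without the 3 libraries, and between 30 (without Cdh2-cKO TdT single positive replicate 2) and 878 (without WT double negative replicate 3) when leaving out each library. The CD45 comparison gave 9570 calls, 3709 with the fold threshold and 5575 with WT libraries alone. DESeq2 called between 1 and 522 genes between the genotypes, where edgeR called at most 1, 30 genes for the interaction and 6 for TdT within CD45+ cells. Leaving out single libraries gave up to 89 genes in TdT single positive cells (without WT TdT single positive replicate 2), up to 604 in double negative cells and 15 for the interaction, and none of the 10 genes among them. Some log2 fold changes changed sign, none of them called, and the cause was not tested. For CD45+ versus CD45-, these were Cd44 (-0.0052 with DESeq2, -0.0051 with RLE factors, -0.17 with Cdh2-cKO libraries alone). For TdT within CD45-, these were Has1 (0.24 with WT libraries alone), Has2 (0.18 with WT libraries alone), Hyal1 (0.0049 with no filter, 0.086 with the replicate block, 0.62 with Cdh2-cKO libraries alone), Tnfaip6 (0.46 with WT libraries alone, 0.069 with the 3 libraries left out), Lyve1 (-0.57 with WT libraries alone, -0.97 with the 3 libraries left out). For TdT within CD45+, these were Has1 (-0.56 with Cdh2-cKO libraries alone), Hyal1 (0.022 with WT libraries alone), Cd44 (0.013 with WT libraries alone), Tnfaip6 (-0.0049 with the replicate block, -0.38 with Cdh2-cKO libraries alone), Lyve1 (0.017 with the replicate block). For the genotypes in TdT single positive cells, these were Hyal1 (-0.18 with the 3 libraries left out), Lyve1 (-0.84 with voom, -4.22 with the 3 libraries left out). For the genotypes in CD45 single positive cells, these were Vcan (0.023 with DESeq2, 0.023 with RLE factors, 0.076 with the replicate block), Lyve1 (-0.14 with the 3 libraries left out). For the genotypes in double negative cells, these were Hyal1 (0.10 with the 3 libraries left out), Vcan (0.029 with voom). Leaving out each library in turn gave a change of sign, with these ranges, in CD45+ versus CD45- (Cd44 -0.0101 to 0.12), in TdT within CD45- (Has1 -0.27 to 0.10, Hyal1 -0.64 to 0.30, Hyal2 -0.35 to 0.024, Tnfaip6 -0.74 to 0.24, Lyve1 -1.75 to 1.49), in TdT within CD45+ (Has1 -0.47 to 0.38, Hyal1 -0.21 to 0.12, Hyal2 -0.29 to 0.13, Cd44 -0.10 to 0.12, Tnfaip6 -0.11 to 0.12, Lyve1 -1.24 to 1.38), in the genotypes in TdT single positive cells (Hyal1 -0.16 to 1.72, Hyal2 -0.32 to 0.10, Lyve1 -4.20 to 1.68), in the genotypes in double positive cells (Has1 -0.66 to 1.35, Lyve1 -0.11 to 2.31), in the genotypes in CD45 single positive cells (Vcan -0.41 to 0.67, Lyve1 -0.15 to 4.11), in the genotypes in double negative cells (Hyal1 -0.48 to 0.10, Hyal2 -0.33 to 0.41, Vcan -0.72 to 0.48, Tnfaip6 -0.76 to 0.35). Labels do not say that replicate numbers mark mice. Deviations from group means correlated between same-numbered libraries by -0.296 to 0.593 over 30 pairs, 10 of them over 0.1, and not every library correlated best with its own number, also among the CD45- libraries, so the block was an alternative alone. Over all libraries it gave 234 calls for TdT within CD45- cells in place of 284, and neither it nor the block within each genotype (1396 calls) changed a call of the 10 genes. Depth limited Has3 and Hapln1, which failed the filter, and Has2 in CD45+ libraries, at 1 to 40 counts each.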
